A study of Mus musculus with 12 samples.

Results

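The genes described here drive DNA replication and mitosis, and 44 of the 45 symbols chosen were measured, among 19938 genes with a single symbol on the arrays. They were taken as a list of symbols chosen with earlier results of these data known, with no threshold on any value, and each gene was read from its brightest probe set. The list was divided into 14 replication genes and 31 mitosis genes, of which 30 were measured. Ccnb1, the mitotic cyclin B1 gene, had no probe set of that single symbol and was not analysed here.

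The study measured total RNA of whole hippocampus and olfactory bulb with 1-colour arrays, 1 array per tissue and animal. The groups were 3 hippocampus samples of RasGRF2 knockout mice, 3 hippocampus samples of wild-type mice, 3 olfactory bulb samples of the same knockout mice and 3 olfactory bulb samples of the same wild-type mice. All 6 animals were adults on the C57BL/6 background. RasGRF2 is an exchange factor that activates Ras and Rac. The labels give the knockout as GRF2 KO, and do not name the deleted exons or say whether the wild-type animals were littermates. They place the animals in a conventional facility with exposure to common pathogens, in both genotypes.

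Before a cell divides, cyclin E with its kinase and the E2F transcription factors start S phase, the MCM ring opens the double helix, the PCNA clamp holds the polymerase on the template, and ribonucleotide reductase supplies the building blocks. Mitotic cyclins and kinases then build the spindle, the checkpoint delays anaphase until every chromosome is attached, and the midzone proteins direct cytokinesis. In the adult brain most neurons have left the cycle. Divisions go on in the dentate gyrus of the hippocampus, in the subventricular zone that sends neuroblasts to the olfactory bulb, and in scattered oligodendrocyte precursors.

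Replication and mitosis genes are known to be timed through different promoter elements, E2F sites in S phase genes and cell cycle homology regions (CHR) beside CCAAT boxes in mitotic genes, and 5 promoters are shown because they span the members on which the results turn. Ccne1 and Ect2 are the replication and mitosis genes with the largest tissue difference, averaged over the genotypes, among members past the threshold in both genotypes and with a promoter in the table, Haus2 is the member lower in knockout, and Mcm6 and Bub1b were added after their values were seen, as examples with E2F words and with CHR words. Each run is 300 bases, 5′ to 3′, from RefSeq on build GRCm38.p6, and capitals mark matches.
Mcm6 (chr1:128359656-128359955, - strand): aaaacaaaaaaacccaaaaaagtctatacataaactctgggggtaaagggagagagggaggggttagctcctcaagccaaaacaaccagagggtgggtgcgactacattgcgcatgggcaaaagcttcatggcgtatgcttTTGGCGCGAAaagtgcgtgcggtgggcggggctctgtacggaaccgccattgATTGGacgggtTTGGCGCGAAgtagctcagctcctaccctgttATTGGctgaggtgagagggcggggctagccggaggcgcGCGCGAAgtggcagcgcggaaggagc
Ccne1 (chr7:38107441-38107740, - strand): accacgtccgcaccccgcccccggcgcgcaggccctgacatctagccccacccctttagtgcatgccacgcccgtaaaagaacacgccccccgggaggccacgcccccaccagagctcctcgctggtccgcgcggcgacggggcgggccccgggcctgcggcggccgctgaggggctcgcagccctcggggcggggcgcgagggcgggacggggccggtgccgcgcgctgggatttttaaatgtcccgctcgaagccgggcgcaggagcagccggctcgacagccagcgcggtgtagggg
Ect2 (chr3:27153829-27154128, - strand): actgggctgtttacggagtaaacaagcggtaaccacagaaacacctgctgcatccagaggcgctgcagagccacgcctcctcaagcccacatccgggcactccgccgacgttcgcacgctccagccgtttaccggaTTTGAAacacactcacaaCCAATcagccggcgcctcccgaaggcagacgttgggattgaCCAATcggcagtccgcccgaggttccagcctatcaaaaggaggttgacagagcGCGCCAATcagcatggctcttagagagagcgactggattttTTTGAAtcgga
Bub1b (chr2:118597961-118598260, + strand): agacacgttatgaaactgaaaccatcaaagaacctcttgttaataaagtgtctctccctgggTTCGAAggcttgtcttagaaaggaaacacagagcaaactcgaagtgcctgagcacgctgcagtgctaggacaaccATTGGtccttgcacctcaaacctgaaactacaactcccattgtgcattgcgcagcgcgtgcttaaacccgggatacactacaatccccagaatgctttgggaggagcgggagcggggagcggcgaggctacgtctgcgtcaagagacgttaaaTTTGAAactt
Haus2 (chr2:120609132-120609431, + strand): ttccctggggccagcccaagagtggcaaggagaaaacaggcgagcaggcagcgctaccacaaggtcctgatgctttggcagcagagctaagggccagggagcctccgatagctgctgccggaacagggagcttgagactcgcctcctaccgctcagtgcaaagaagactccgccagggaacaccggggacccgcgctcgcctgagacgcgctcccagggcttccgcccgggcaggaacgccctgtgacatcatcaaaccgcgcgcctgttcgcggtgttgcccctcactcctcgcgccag
The Mcm6 promoter held 5 E2F matches, some of them overlapping, and 2 CCAAT matches. The Ect2 promoter held 2 CHR matches, 3 CCAAT matches and 1 E2F match that overlaps the last CCAAT. The Bub1b promoter held 2 CHR matches and 1 CCAAT match. The Ccne1 promoter and both Haus2 promoters in the table held none of these words in this window.

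The E2F words searched on both strands were TTCCCGC, then the variant TTCGCGC, then the variant TTGCCGC, and last the variant TTGGCGC. The CHR words were TTTGAA, with the variant TTCGAA, and the box was CCAAT. The last E2F word read on the other strand can share letters with CCAAT. At least 1 E2F word was present in 7 of the 12 promoters of replication genes (58.3%) and in 6 of the 30 of mitosis genes (20%), against 9.57% of all 32851 promoters of that length. A CHR word was present in 2 promoters of replication genes (16.7%) and in 21 of mitosis genes (70%), against 19.2% of all promoters. CCAAT was present in 75% of the replication promoters and 73.3% of the mitosis promoters, against 37.4% of all. The 12 promoters belong to 11 replication genes and the 30 promoters to 27 mitosis genes, Ccnb1 included. The 2 lists thus differed in E2F and CHR words and shared CCAAT, and a match of letters is a description of the window, not a bound site.

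**Figure D1:**
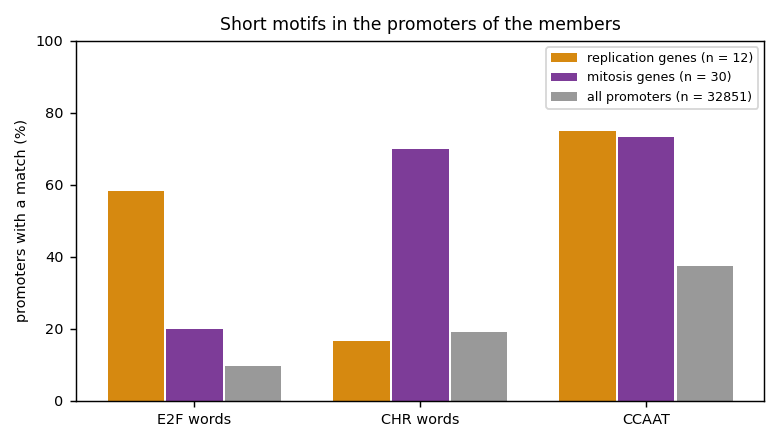
Share of 300-base promoters (percent, vertical axis) with at least 1 match to E2F words, CHR words or CCAAT, for replication genes, mitosis genes and all promoters. The E2F bar is tallest for replication genes (58.3%), the CHR bar for mitosis genes (70%), and the CCAAT bars of both lists are close (75% and 73.3%).

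Values are log2 intensities after RMA, a normalization that gives 1 value per probe set. Intensities of different probe sets depend on their probes as well as on RNA, so percentiles among all genes serve here only as a rough description of how bright each set was. The mitosis genes were mostly dim. Of the 30 measured, 27 lay below the median gene in all 4 groups and 13 below the lower quartile, with a median percentile of 25.3 in knockout hippocampus and 25.3 in wild-type hippocampus, and 24.5 in knockout bulb and 25.9 in wild-type bulb. Of the 14 replication genes 7 lay below the median gene in all groups, with a median percentile of 45.8, 44.3, 47.0 and 48.0 in the same order.

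The proliferation marker Mki67, whose protein coats mitotic chromosomes, read 5.91, 5.78 and 6.02 in knockout hippocampus, against 5.70, 5.70 and 5.70 in wild-type hippocampus. In the olfactory bulb it read 5.76, 5.83 and 5.78 in knockout, against 5.93, 5.80 and 5.76 in wild type. The hippocampal values did not overlap between genotypes, and the bulb values did. Top2a, the topoisomerase that disentangles sister DNA, read 5.14, 5.10 and 5.33 in knockout hippocampus and 5.25, 5.11 and 4.93 in wild-type hippocampus, and 5.08, 5.10 and 5.19 in knockout bulb and 4.94, 5.16 and 5.25 in wild-type bulb. Its groups overlapped in both tissues, near the 15th percentile of genes (14.11 to 15.59). Cdk1, the kinase that triggers mitosis, read 5.91, 5.68 and 5.83 in knockout hippocampus and 5.61, 5.82 and 5.59 in wild-type hippocampus, again with overlap.

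At the bright end, Pcna, the sliding clamp, read 9.987, 10.013 and 10.140 in knockout hippocampus and 10.003, 10.006 and 9.954 in wild-type hippocampus, and 9.928, 10.029 and 9.961 in knockout bulb and 10.140, 10.029 and 9.999 in wild-type bulb. All 12 values lay within a narrow band, around the 92nd to 93rd percentile (92.04 to 92.78). Mcm2, a subunit of the replicative helicase, lay near the median gene, at 7.24, 7.03 and 7.42 in knockout hippocampus, 7.16, 7.25 and 7.20 in wild-type hippocampus, 7.20, 7.16 and 6.99 in knockout bulb and 7.29, 7.39 and 7.25 in wild-type bulb. Its bulb groups did not overlap, knockout lower, and its hippocampal groups did. The dimmest member means were those of Bub1, Cenpe and Gins1, a checkpoint kinase, a kinetochore motor and a helicase subunit, with group means of 4.58 to 4.82.

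**Figure D2:**
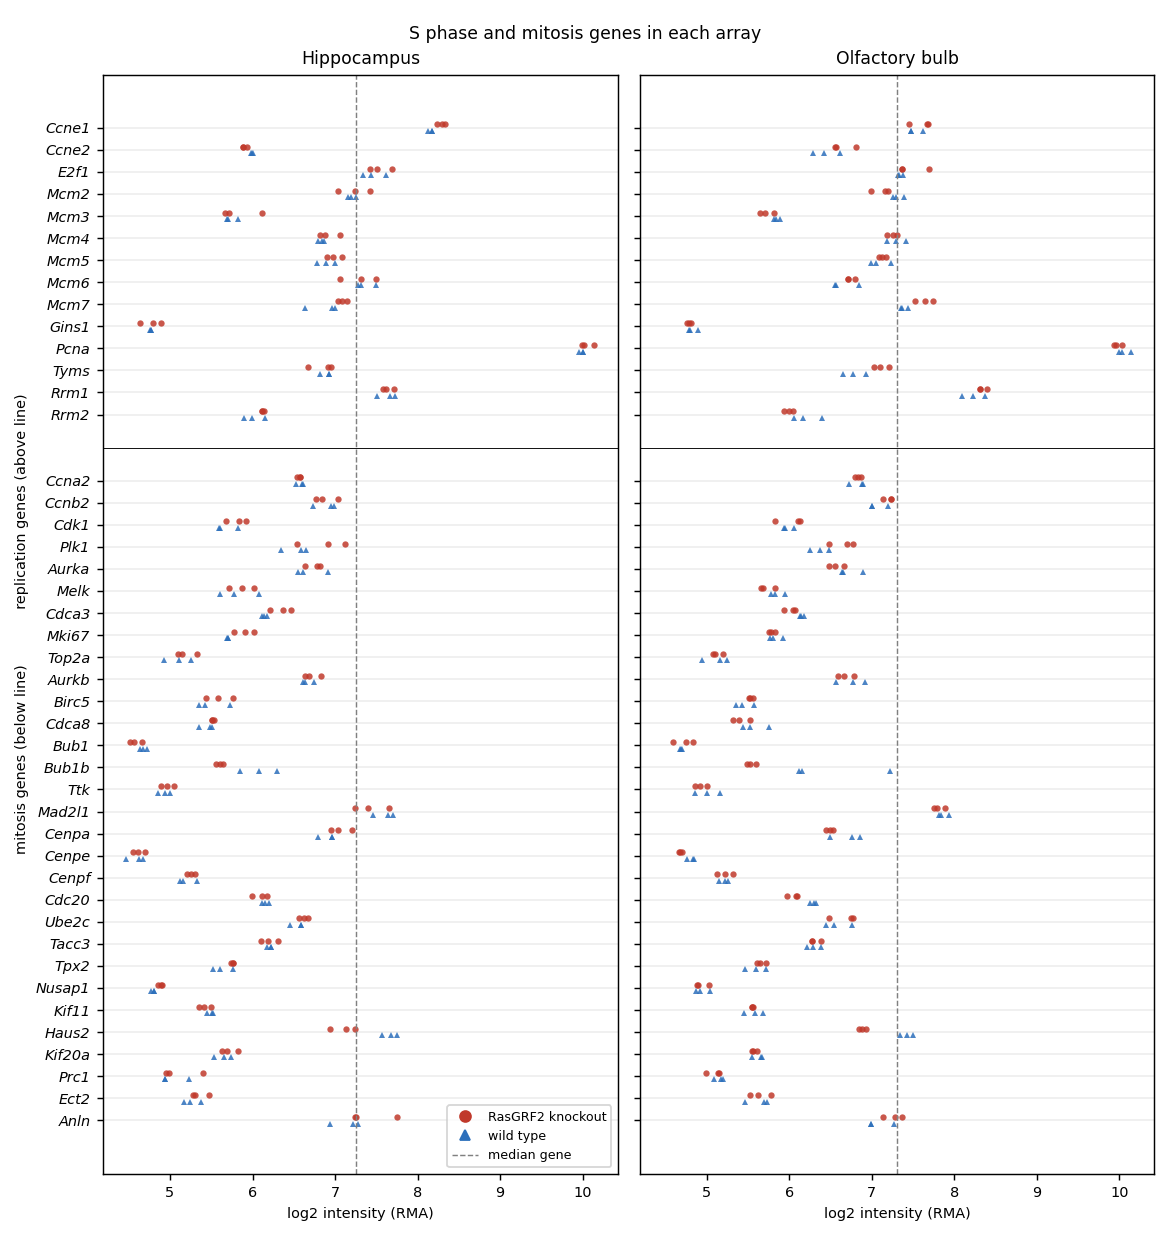
Log2 intensity (horizontal axis) of each of the 44 measured genes in every array, hippocampus on the left and olfactory bulb on the right, with red circles for the 3 knockout arrays, blue triangles for the 3 wild-type arrays and a dashed line at the median gene. Most mitosis genes lie left of the line, Pcna lies far to its right near 10, and genotypes overlap for most genes while Haus2 and Bub1b stand apart.

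Averaged over each list, the group means lay close together, although some groups did not overlap. The mean over the 30 mitosis genes was 5.97 ± 0.015 in knockout hippocampus and 5.94 ± 0.035 in wild-type hippocampus, and 5.95 ± 0.023 in knockout bulb and 6.02 ± 0.042 in wild-type bulb (SD, n = 3 each). The mean over the 14 replication genes was 7.04 ± 0.026 in knockout hippocampus and 6.99 ± 0.038 in wild-type hippocampus, and 7.11 ± 0.016 in knockout bulb and 7.07 ± 0.056 in wild-type bulb. The replication mean was lower in hippocampus than in bulb without overlap in each genotype. The mitosis mean in bulb was lower in knockout (5.926 to 5.971) than in wild type (5.975 to 6.053). Without Haus2 these bulb ranges overlapped, at 5.893 to 5.941 in knockout and 5.923 to 6.009 in wild type. After group means were subtracted, little correlation was left within the lists. Over the 12 arrays the mean Pearson correlation was 0.042 within the replication list (median 0.036) and 0.032 within the mitosis list (median 0.050). Among Mcm2 to Mcm7, the 6 subunits of 1 ring, the mean was 0.076 and the median 0.23 over 15 pairs. All gene pairs averaged 0.021, with no median computed, and the pairs share the same arrays. Whole tissue was measured, so fewer cells of a type and less RNA per cell cannot be told apart in these levels.

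The targeted gene and the tissues were checked first. Rasgrf2 read 8.64, 8.76 and 8.49 in knockout hippocampus, against 9.32, 9.14 and 9.18 in wild-type hippocampus, a fall of 0.58 on the log2 scale (SE 0.0772, adjusted p = 0.00197, limma). In the olfactory bulb it read 9.33, 9.35 and 9.43 in knockout and 9.52, 9.52 and 9.47 in wild type, a difference of -0.14 that did not pass (adjusted p = 0.532). Whether its probe set lies inside the deleted part is not stated, so this level checks the labels only in part. All 8 measured hippocampal neuron markers were higher in hippocampus and 8 of 9 bulb neuron markers lower, in both genotypes. The other bulb neuron marker passed as higher in hippocampus, by 1.17 in knockout and by 1.14 in wild type. Over all genes 14.3% passed as higher in hippocampus in both genotypes and 16.3% as lower. Array medians ranged from 6.82 to 6.96 over the 12 arrays, and no array was a copy of another. They were 6.857 to 6.891 in knockout hippocampus and 6.819 to 6.852 in wild-type hippocampus. In bulb they were 6.931 to 6.954 in knockout and 6.948 to 6.955 in wild type. The medians were thus lower in hippocampus than in bulb without overlap. Within hippocampus they were higher in knockout than in wild type, also without overlap.

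The first comparison set knockout against wild type within each tissue. In hippocampus 1 of the 44 genes passed an adjusted p of 0.05 (limma over 19938 genes, Benjamini-Hochberg), against 0.256% of all genes, and it was Haus2. In olfactory bulb again 1 of 44 passed, against 0.411% of all genes, and it was Haus2 once more. Both tissues come from the same animals, so these are not independent sets of mice. No other replication or mitosis gene of the list passed in either tissue. The symbols were chosen with earlier results of these data known, so the call of Haus2 may have been fixed by that choice. These shares therefore do not show that genes of the list were called more often than others.

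Haus2 encodes a subunit of augmin, the complex that seeds new microtubules along those of the spindle. It read 7.13, 7.24 and 6.94 in knockout hippocampus, against 7.67, 7.57 and 7.76 in wild-type hippocampus. Every knockout value lay below every wild-type value, and the means were 7.10 ± 0.154 for knockout animals and 7.67 ± 0.0918 for wild-type animals (SD over 3 animals). Haus2 fell by 0.56 (SE 0.0831, adjusted p = 0.00567), or 1.48-fold, with a 95% interval of -0.74 to -0.39.

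In the olfactory bulb Haus2 read 6.85, 6.93 and 6.88 in knockout, against 7.50, 7.43 and 7.34 in wild type, again without overlap. It fell by 0.54 (SE 0.0831, adjusted p = 0.00858), or 1.45-fold, with a 95% interval of -0.71 to -0.36. The fall differed between the tissues by -0.03 (95% interval -0.28 to 0.22, adjusted p = 0.947). The hippocampal call was lost when only hippocampal arrays were fitted (adjusted p = 0.0628), and the bulb call without wild-type bulb animal 1 (-0.50, adjusted p = 0.0549) or knockout bulb animal 4 (-0.52, adjusted p = 0.0503). Haus2 passed in 13 of 14 alternatives in hippocampus and in 12 of 14 in bulb.

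Of the other augmin subunits 6 were measured, Haus1 and Haus4 to Haus8, and 0 passed in either tissue by limma, where 0.256% of all genes passed in hippocampus and 0.411% in bulb. An unadjusted p under 0.05 was reached by 0 of 6 in hippocampus, against 8.91% of all genes, and by 2 of 6 in bulb, against 11.3%. Their differences between knockout and wild type ran from -0.09 to 0.15 in hippocampus and from -0.29 to 0.24 in bulb.

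Bub1b encodes BubR1, a kinase-like protein of the spindle checkpoint. It read 5.56, 5.60 and 5.65 in knockout hippocampus, against 5.85, 6.29 and 6.08 in wild-type hippocampus, and 5.52, 5.60 and 5.49 in knockout bulb, against 6.12, 6.15 and 7.22 in wild-type bulb. All knockout values lay below all wild-type values in both tissues, the 6 knockout values were tightly grouped, and 1 wild-type bulb array stood far above the others. The differences of -0.47 in hippocampus (SE 0.210, adjusted p = 0.546) and -0.96 in bulb (SE 0.210, adjusted p = 0.0706) did not pass. Its pooled SD of 0.334 was larger than that of any other member and at the 99.7th percentile of genes. Without wild-type bulb animal 3, the high array, the bulb difference was -0.60 and passed (adjusted p = 0.0211).

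Bub1b, Nusap1 and Haus2 lie in that order on chromosome 2, which carries 10 of the 44 genes. From Bub1b to Haus2 there were 50 measured genes in the RefSeq order of GRCm38.p6, and 5 of them passed in at least 1 tissue, 3 of them in both. That is 3 of 50 in hippocampus, against 0.256% of all genes, and 5 of 50 in bulb, against 0.411%. Beside Haus2 these were Ivd, of leucine breakdown, which fell by 0.60 in hippocampus and by 0.62 in bulb (SE 0.0743 in each, adjusted p = 0.00127 and 0.000631), and Pla2g4e, a phospholipase gene, which rose by 1.21 and 2.27 (SE 0.0913 in each, adjusted p = 1.02e-05 and 2.24e-09). Chp1 (-0.45, adjusted p = 0.0260) and Zfp106 (0.36, adjusted p = 0.0346) passed in bulb. Haus2 bounds the stretch and is counted in both tissues, so at least 1 call in each was fixed by the choice of stretch.

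Nusap1, which bundles spindle microtubules, read 4.85, 4.90 and 4.91 in knockout hippocampus, against 4.81, 4.77 and 4.81 in wild-type hippocampus, and 4.89, 5.03 and 4.89 in knockout bulb, against 5.04, 4.92 and 4.87 in wild-type bulb. It did not pass in hippocampus (0.09, adjusted p = 0.713) or in bulb (-0.01, adjusted p = 0.987). Over all members, 6 of 44 (13.6%) had a called gene among the 10 measured genes on either side, against 8.59% of all 19919 placed genes. Of these 6, Bub1b, Nusap1 and Haus2 lie in this 1 stretch, and the others were Mcm3, Plk1 and Cenpf. The stretch was described after its values were seen. A cause shared by neighbouring genes was not tested.

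**Figure D3:**
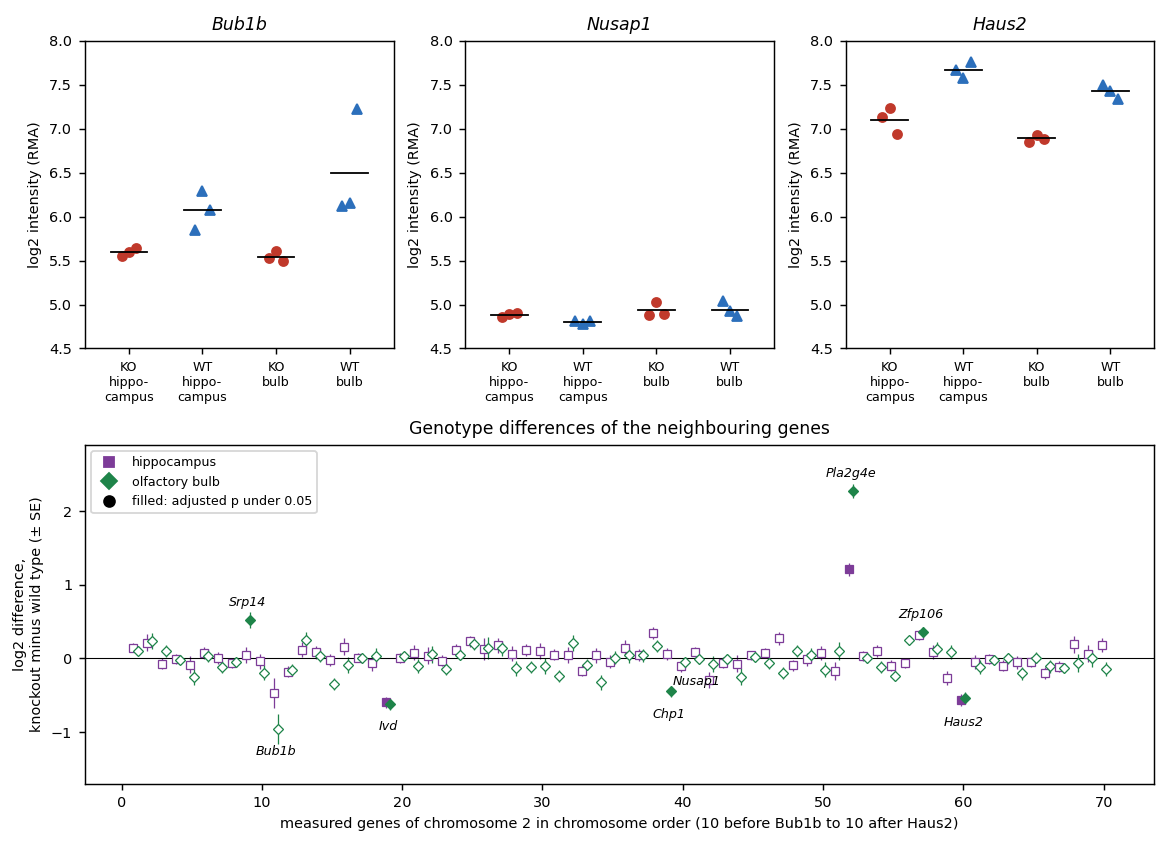
Top, log2 intensity of Bub1b, Nusap1 and Haus2 in each array (circles knockout, triangles wild type, bars group means). Bottom, knockout minus wild type (log2, ± SE) for 70 measured genes in chromosome order from 10 genes before Bub1b to 10 after Haus2, squares for hippocampus, diamonds for bulb, filled where the adjusted p was under 0.05: most points lie near 0, Ivd and Haus2 lie near -0.6 in both tissues, and Pla2g4e reaches 1.21 and 2.27.

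Among the replication genes, Mcm7, another helicase subunit, had the smallest p in hippocampus. It read 7.144, 7.089 and 7.041 in knockout hippocampus, against 6.958, 6.998 and 6.639 in wild-type hippocampus, and 7.65, 7.52 and 7.74 in knockout bulb, against 7.43, 7.36 and 7.36 in wild-type bulb. Knockout values lay above wild-type values in both tissues without overlap, yet the differences of 0.23 (SE 0.0908, adjusted p = 0.519) and 0.25 (SE 0.0908, adjusted p = 0.336) did not pass.

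Tyms, which makes thymidylate, had the smallest p of the replication genes in bulb. It read 7.02, 7.21 and 7.10 in knockout bulb, against 6.77, 6.93 and 6.65 in wild-type bulb, without overlap, a difference of 0.33 (SE 0.0917, adjusted p = 0.207). In hippocampus its groups overlapped, at 6.67, 6.95 and 6.92 in knockout and 6.93, 6.93 and 6.82 in wild type. Rrm2, the small subunit of ribonucleotide reductase, differed by 0.11 in hippocampus (adjusted p = 0.720) and by -0.21 in bulb (adjusted p = 0.393), and Ccne1 by 0.13 (adjusted p = 0.634) and 0.08 (adjusted p = 0.722).

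Among the mitosis genes Cdca3, a trigger of mitotic entry, read 6.37, 6.21 and 6.47 in knockout hippocampus, against 6.11, 6.18 and 6.14 in wild-type hippocampus. The groups did not overlap, and the difference of 0.21 did not pass (SE 0.0731, adjusted p = 0.461). Mki67 differed by 0.20 in hippocampus (SE 0.0730, adjusted p = 0.489) and by -0.04 in bulb (adjusted p = 0.853). Cdc20, the activator of the anaphase-promoting complex, read 6.09, 6.08 and 5.97 in knockout bulb, against 6.30, 6.32 and 6.25 in wild-type bulb, without overlap, a difference of -0.24 that did not pass (SE 0.0683, adjusted p = 0.210). Plk1, a kinase of centrosomes and spindle, differed by 0.33 in hippocampus (adjusted p = 0.518) and by 0.28 in bulb (adjusted p = 0.442), and passed in hippocampus when arrays were weighted.

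Looser criteria were also counted, and their difference from all genes was not tested. An unadjusted p under 0.05 was reached by 6 of 44 members in hippocampus (13.6%), against 8.91% of all genes, and by 10 of 44 in bulb (22.7%), against 11.3%. The genotypes did not overlap for 9 of 44 members in each tissue (20.5%), against 13.1% of all genes in hippocampus and 17.1% in bulb. In hippocampus 33 of 44 differences were above 0 (75%, against 63% of all genes), with a median of 0.07 in the replication list and 0.06 in the mitosis list, and 0.03 over all genes. In bulb 21 of 44 were above 0 (47.7%, against 44.5% of all genes), with medians of 0.06 and -0.03, and -0.02 over all genes. With each array centred on its own median, the median over all genes was -0.0014 in hippocampus and -0.0084 in bulb. The differences above 0 were not counted after centring.

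The arrays bound how large a missed difference in log2 intensity can be. They do not bound the RNA difference to the same degree. Of the 44 members 34 lay below the median gene in all groups, and RMA compresses differences of dim genes. In each tissue 40 of the 44 members had a 95% interval of the genotype difference that lay wholly within ±0.5, and the median half-width was 0.19.

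**Figure D4:**
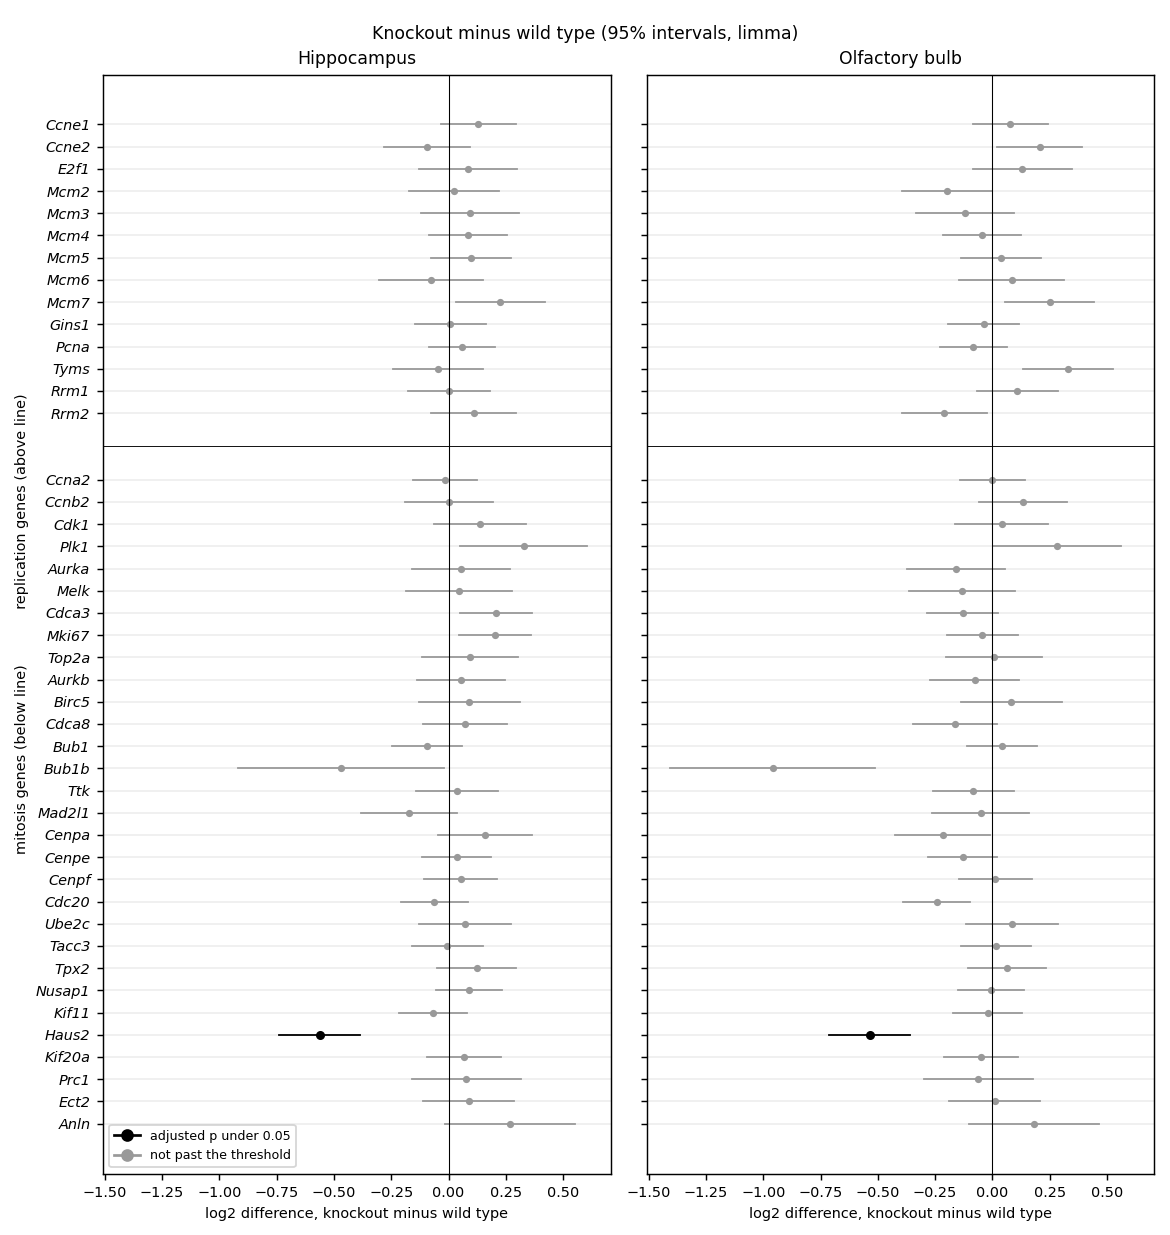
Knockout minus wild type (log2, horizontal axis) with 95% intervals from limma for each of the 44 genes, hippocampus left and olfactory bulb right, in black where the adjusted p was under 0.05. Haus2 is black in both panels at -0.56 and -0.54, Bub1b has the widest interval, and the other intervals cluster around 0.

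The genotype effect was then compared between the tissues. No member passed (0 of 44, against 0.015% of all genes, limma), and 6 members had an unadjusted p under 0.05 (13.6%, against 10.7%). The smallest p was that of Cdca3, whose knockout effect was 0.34 higher in hippocampus than in bulb (SE 0.103, adjusted p = 0.375). Tyms differed by -0.37 (SE 0.130, adjusted p = 0.388), Cenpa, the centromeric histone, by 0.38 (SE 0.136, adjusted p = 0.392), and Bub1b by 0.49 (SE 0.297, adjusted p = 0.558).

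Genes of the same processes outside the list were counted for comparison. Of 44 other replication genes 0 passed in either tissue by limma, where 0.256% of all genes passed in hippocampus and 0.411% in bulb. An unadjusted p under 0.05 was reached by 4 in hippocampus (9.09%, against 8.91% of all genes) and by 2 in bulb (4.55%, against 11.3%). Of 72 other mitosis genes 12 reached it in hippocampus (16.7%) and 8 in bulb (11.1%), and 1 passed in each tissue, Pttg1, the securin that guards sister chromatid cohesion, at 6.17 ± 0.214 in knockout hippocampus against 8.07 ± 0.0744 in wild-type hippocampus, and 5.98 ± 0.0635 in knockout bulb against 7.68 ± 0.294 in wild-type bulb (SD, n = 3 each). Of 12 inhibitors of cyclin-dependent kinases, pocket proteins and related brakes on the cycle, 0 passed in hippocampus by limma, with 3 under an unadjusted 0.05, and Btg2, an antiproliferative gene, fell by 0.75 in bulb (SE 0.128, adjusted p = 0.0188). Over the 12 marker lists of cell types, the neuroblast gene Dlx5 was the only marker past the threshold between genotypes, higher in knockout bulb by 0.84 (adjusted p = 0.00117). In bulb 5 of 10 neural stem cell markers (50%) and 4 of 9 oligodendrocyte precursor markers (44.4%) reached an unadjusted p under 0.05, against 11.3% of all genes. All of these were lower in knockout. Of 14 neuroblast markers 2 reached it in bulb (14.3%), both higher. In hippocampus 2 neural stem cell markers (20%) and 0 precursor markers reached it, against 8.91%. Whether these markers relate to the cycle genes was not tested.

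The second comparison set hippocampus against olfactory bulb within each genotype, and the genotypes are separate animals. In knockout mice 13 of the 44 members passed, against 39.1% of all genes, with 4 higher in hippocampus (19.2% of all genes) and 9 lower (19.9%). In wild-type mice 12 of 44 passed, against 40.9% of all genes, with 3 higher (17.5%) and 9 lower (23.4%). In both genotypes with the same sign 9 of 44 passed, against 30.6% of all genes, with 2 higher in hippocampus (14.3%) and 7 lower (16.3%). The tissues did not overlap for 19 members in knockout (43.2%, against 48.9% of all genes) and for 18 in wild type (40.9%, against 50.9%). Over both lists together the shares, 29.5% in knockout and 27.3% in wild type, were below those of all genes. No member passed with a difference over 2-fold. By list, 7 of 14 replication genes passed in knockout (50%) and 6 in wild type (42.9%). Of the 30 mitosis genes 6 passed in each genotype (20%).

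The replication genes accounted for 6 of the 9, out of 14, and the mitosis genes for 3, out of 30, where 30.6% of all genes passed in both. Each array was also centred on its own median over all probe sets, named or not. The calls became 7 higher and 7 lower in knockout, 4 higher and 5 lower in wild type, and 4 higher and 4 lower in both. The genes higher in both after centring were Ccne1, Mcm6, Cenpa and Haus2, and those lower were Ccne2, Mcm4, Mcm7 and Rrm1. Centring moved the median difference of all genes to 0.08 from 0.01 in knockout, further from 0, and to 0.04 from -0.07 in wild type.

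The cyclin E genes, which open S phase, were opposed. Ccne1 read 8.30, 8.33 and 8.23 in knockout hippocampus, against 7.68, 7.68 and 7.45 in knockout bulb, and 8.18, 8.17 and 8.12 in wild-type hippocampus, against 7.47, 7.47 and 7.62 in wild-type bulb. Every hippocampal value lay above every bulb value, by 0.68 in knockout (SE 0.0761, adjusted p = 3.14e-06), or 1.61-fold, and by 0.63 in wild type (SE 0.0761, adjusted p = 6.97e-06), or 1.55-fold.

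Ccne2 read 5.88, 5.88 and 5.93 in knockout hippocampus, against 6.56, 6.81 and 6.57 in knockout bulb, and 6.00, 6.00 and 5.98 in wild-type hippocampus, against 6.62, 6.42 and 6.29 in wild-type bulb. Every hippocampal value lay below every bulb value, by -0.75 in knockout (SE 0.0877, adjusted p = 5.39e-06) and by -0.45 in wild type (SE 0.0877, adjusted p = 0.000692). The difference between these effects, -0.30, did not pass (adjusted p = 0.429). E2f1, the transcription factor that activates both genes, did not differ past the threshold in either genotype (0.07, adjusted p = 0.613, and 0.12, adjusted p = 0.367).

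The MCM ring genes were not uniform. Mcm6 read 7.31, 7.49 and 7.06 in knockout hippocampus, against 6.71, 6.71 and 6.80 in knockout bulb, and 7.50, 7.31 and 7.28 in wild-type hippocampus, against 6.57, 6.84 and 6.56 in wild-type bulb. It was higher in hippocampus without overlap, by 0.55 in knockout (SE 0.107, adjusted p = 0.000720) and by 0.71 in wild type (SE 0.107, adjusted p = 7.09e-05). Mcm7, whose values stand above, was lower in hippocampus without overlap, by -0.54 in knockout (SE 0.0908, adjusted p = 0.000178) and by -0.52 in wild type (SE 0.0908, adjusted p = 0.000271).

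Mcm4 read 6.88, 7.06 and 6.81 in knockout hippocampus, against 7.26, 7.19 and 7.31 in knockout bulb, and 6.87, 6.84 and 6.79 in wild-type hippocampus, against 7.30, 7.41 and 7.18 in wild-type bulb. It was lower in hippocampus without overlap, by -0.33 in knockout (SE 0.0799, adjusted p = 0.00354) and by -0.46 in wild type (SE 0.0799, adjusted p = 0.000244). Mcm2, Mcm3 and Mcm5 did not pass in either genotype, with differences from -0.20 to 0.12. The Mcm6 promoter printed above and both Mcm7 promoters hold E2F words. Whether promoter words relate to the tissue differences was not tested.

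Of the genes for nucleotide supply, Rrm1, the large subunit of ribonucleotide reductase, read 7.61, 7.71 and 7.58 in knockout hippocampus, against 8.31, 8.31 and 8.39 in knockout bulb, and 7.73, 7.50 and 7.66 in wild-type hippocampus, against 8.10, 8.38 and 8.22 in wild-type bulb. It was lower in hippocampus without overlap, by -0.70 in knockout (SE 0.0829, adjusted p = 5.66e-06) and by -0.60 in wild type (SE 0.0829, adjusted p = 3.00e-05). Rrm2, its partner subunit, did not pass (0.13, adjusted p = 0.283, in knockout and -0.19, adjusted p = 0.0923, in wild type). Tyms was lower in hippocampus in knockout (-0.27, adjusted p = 0.0317) and did not pass in wild type (0.11, adjusted p = 0.375).

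Pcna, the clamp, did not pass between the tissues, with differences of 0.07 in knockout (adjusted p = 0.428) and -0.07 in wild type (adjusted p = 0.453). Its second probe set gave 0.09 and -0.05. Gins1 differed by -0.01 and -0.06 and did not pass either.

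The 3 mitosis genes past the threshold in both genotypes were lower in hippocampus. Ccna2, cyclin A2, read 6.57, 6.57 and 6.54 in knockout hippocampus, against 6.83, 6.87 and 6.80 in knockout bulb, and 6.61, 6.52 and 6.60 in wild-type hippocampus, against 6.89, 6.89 and 6.73 in wild-type bulb. The tissues did not overlap, and the differences were -0.27 (SE 0.0659, adjusted p = 0.00361) and -0.26 (SE 0.0659, adjusted p = 0.00545), the wild-type call being lost with median centring (adjusted p = 0.119).

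Ect2, which activates RhoA for cytokinesis, read 5.28, 5.47 and 5.30 in knockout hippocampus, against 5.78, 5.62 and 5.52 in knockout bulb, and 5.24, 5.37 and 5.17 in wild-type hippocampus, against 5.47, 5.74 and 5.69 in wild-type bulb. The tissues did not overlap, with differences of -0.29 in knockout (SE 0.0931, adjusted p = 0.0208) and -0.37 in wild type (SE 0.0931, adjusted p = 0.00478). The knockout call was lost with centring (adjusted p = 0.0649) and without knockout bulb animal 4 (adjusted p = 0.101), knockout hippocampus animal 4 (adjusted p = 0.0806) or knockout hippocampus animal 6 (adjusted p = 0.0651).

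Mad2l1, the checkpoint protein MAD2, read 7.39, 7.66 and 7.24 in knockout hippocampus, against 7.76, 7.79 and 7.88 in knockout bulb, and 7.64, 7.46 and 7.71 in wild-type hippocampus, against 7.83, 7.94 and 7.81 in wild-type bulb. The tissues did not overlap, with differences of -0.38 in knockout (SE 0.0983, adjusted p = 0.00591) and -0.26 in wild type (SE 0.0983, adjusted p = 0.0477). The wild-type call passed in 6 of 15 alternatives, was lost with each array centred on its median, where the difference was -0.15 (adjusted p = 0.308), was lost with the animal as a block (adjusted p = 0.0696), and was lost without wild-type bulb animal 1, 2 or 3 or wild-type hippocampus animal 1 or 2 (adjusted p from 0.0609 to 0.176).

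Other mitosis genes passed in 1 genotype. In knockout Cenpa (0.58, adjusted p = 0.000180) and Cdca3 (0.33, adjusted p = 0.00186) were higher in hippocampus, and Ccnb2, cyclin B2 (-0.31, adjusted p = 0.0110), was lower. In wild type Haus2 (0.24, adjusted p = 0.0294) was higher, and Cdk1 (-0.31, adjusted p = 0.0172) and the kinetochore motor gene Cenpe (-0.23, adjusted p = 0.0172) were lower. With the animal as a block the wild-type count fell to 10, against 12 without it, as Haus2 and Mad2l1 no longer passed. For none of these genes did the tissue difference itself differ between the genotypes past the threshold, which is the interaction above.

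Mki67 (0.11, adjusted p = 0.249, and -0.13, adjusted p = 0.167) and Top2a (0.06, adjusted p = 0.647, and -0.02, adjusted p = 0.867) did not pass between tissues in knockout or wild type. For the mitosis list the median difference was 0.05 in knockout and -0.08 in wild type, where all genes had 0.01 and -0.07. In wild type 7 of 30 mitosis genes were higher in hippocampus (23.3%, against 37.4% of all genes) and 23 were lower, and with median centring their median was 0.03, on the other side of 0.

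**Figure D5:**
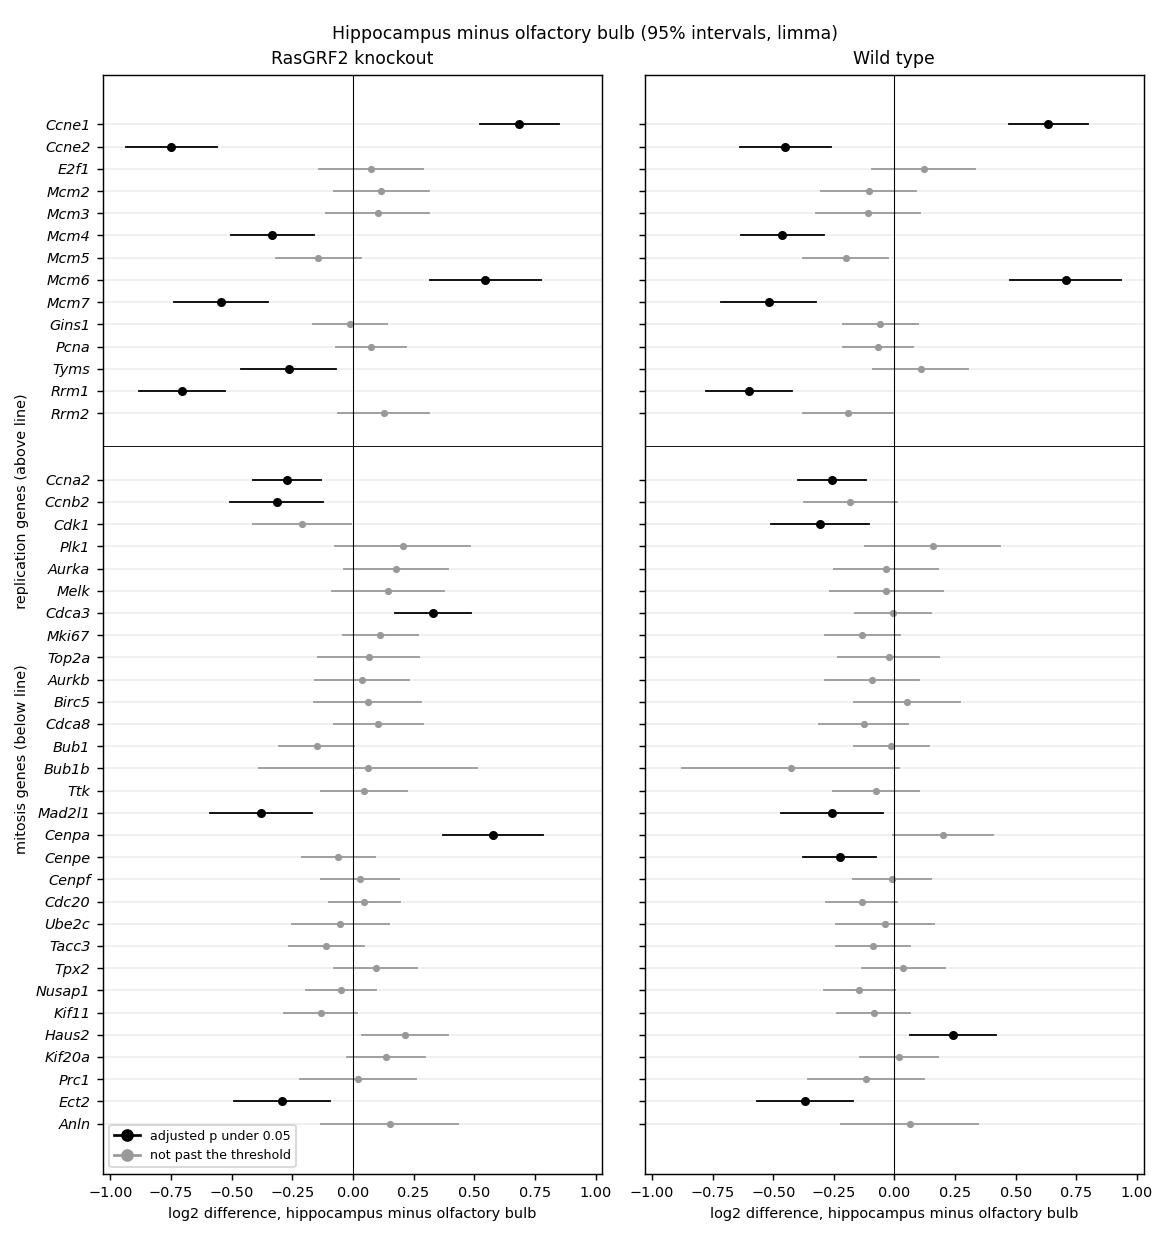
Hippocampus minus olfactory bulb (log2, horizontal axis) with 95% intervals from limma for each of the 44 genes, knockout mice left and wild-type mice right, in black where the adjusted p was under 0.05. Ccne1 and Mcm6 lie to the right in both panels (0.68 and 0.55, 0.63 and 0.71), Ccne2, Rrm1, Mcm7 and Mcm4 lie to the left, and most mitosis genes lie near 0.

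Neuroblast markers differed between the tissues, with a median difference of -1.81 in knockout and -1.62 in wild type. Of 14 neuroblast markers 12 were lower in hippocampus in both genotypes and 1 was higher in both. The list mean was 7.81 to 7.84 over knockout hippocampus arrays, against 9.39 to 9.44 over knockout bulb arrays. In wild type it was 7.78 to 7.80 in hippocampus, against 9.25 to 9.31 in bulb. Dcx, of migrating young neurons, differed by -3.14 in knockout (adjusted p = 3.54e-14) and by -2.95 in wild type (adjusted p = 5.94e-14). Of 9 oligodendrocyte precursor markers 3, of 10 neural stem cell markers 3 and of 9 microglia markers 0 were lower in hippocampus in both genotypes, and 0, 1 and 4 were higher. Over all genes 16.3% were lower in both genotypes and 14.3% higher. The part of these cells in the differences of the cycle genes was not tested.

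Beyond the list, 9 of 44 other replication genes passed in both genotypes, 4 higher and 5 lower in hippocampus, and 8 of 72 other mitosis genes, 3 higher and 5 lower. Over all genes 30.6% passed in both, 14.3% higher and 16.3% lower. Cdca7, a chromatin factor gene, was lower in hippocampus by -1.30 in knockout (adjusted p = 5.25e-08) and -1.22 in wild type (adjusted p = 1.09e-07), and Cit, the citron kinase gene of cytokinesis, by -1.09 (adjusted p = 2.96e-08) and -1.31 (adjusted p = 3.60e-09). Pola1, of the polymerase that starts each strand, was lower by -0.76 and -0.71, and Lig1, the ligase that joins fragments, by -0.55 and -0.49. Rpa1, which coats single strands, was higher by 0.73 and 0.70, and Bub3, a checkpoint partner of Bub1b, by 0.40 and 0.56. Of the 12 brakes on the cycle 7 passed in both genotypes, 6 of them lower in hippocampus, among them the retinoblastoma gene Rb1 (-1.12 and -0.96) and its relative Rbl1 (-0.68 and -0.89).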

How the data were processed

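RNA of 12 samples was hybridised to 1-colour arrays. The deposited table holds log2 intensities that the authors made with RMA and the oligo package per the submitters' processing notes. Neither versions nor a genome build were stated there. Whether the tissues were normalized together was not stated either. RMA corrects background and quantile-normalizes, which compresses differences of dim genes. Of 35556 probe sets 21789 had a single symbol in the platform annotation. The brightest set per symbol gave 19938 genes, with no filter on low signal. Precision is limited by the number of arrays, since no read depth exists.

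Groups came from the sample titles. Limma 3.58.1 in R 4.3.3 fitted 4 group means over the log2 values of 12 arrays (lmFit, eBayes), with Benjamini-Hochberg adjustment over all genes at 0.05. In this fit the spread of each gene was pooled over the 4 groups and moderated by eBayes. The SE of a gene was therefore the same in both tissues and in both genotypes. Animal codes pair the tissues. Codes and title numbers disagree for 2 wild-type mice, so each was run as a block. Deviations from group means of an animal's tissues, paired by code, correlated between -0.255 and 0.116 over genes. The pipeline was tested on simulated data. Members, lists, tests and alternatives were chosen with earlier results of these data known. The genes described in full were the members past the threshold between genotypes, the largest tissue differences in both genotypes, the 3 smallest p per list in each genotype comparison, and Mki67, Top2a, Cdk1, Pcna and Mcm2. Neighbouring genes were ordered by a RefSeq table of GRCm38.p6. Figures were drawn with matplotlib 3.10.9.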

Additional observations from a re-analysis of the deposited data

How the results depend on the processing

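The count of members past the threshold between genotypes in hippocampus, 1 in the fit reported, was 0 when only hippocampal arrays were fitted, 2 with array weights (Haus2 and Plk1) and 0 when only genes above the median gene were tested, which left out Haus2. In bulb it was 1, and 0 with genes above the median gene only, and 0 to 2 when 1 array was left out. Leaving out 1 array moved the tissue difference of the Haus2 effect between -0.096 and 0.0559, across 0. Between the tissues, testing only genes above the median gene left 3 members called in knockout, 3 in wild type and 3 in both (Ccne1, Mad2l1 and Rrm1 each time), by leaving out most members.

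Over all genes the genotype calls in hippocampus, 51 in the fit reported, were 28 with hippocampal arrays alone, 336 with array weights, 125 over every probe set and 30 to 43 with 1 array left out. In bulb, 82 calls became 36 with bulb arrays alone, 136 with trended robust moderation and 35 to 105 with 1 array left out. The 3 calls of the interaction became 12 with array weights, 0 over every probe set or with either block, and 0 to 4 with 1 array left out.

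With the animal code as a replicate block, the count in both genotypes was 8 and in wild type 10. With the title number as the block these were 8 and 11, and the knockout count was 13 with either. The block left the genotype call of Haus2 past the threshold in both tissues (adjusted p = 0.00544 and 0.00824 by animal code). Most mitosis genes were dim, where RMA compresses differences. The interval widths rest on a spread pooled over all groups, with 3 animals per group.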
